A study of Rattus norvegicus with 18 samples.

Results

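A set of 8 genes of cyclic AMP signalling in striatal neurons (Adcy5, Ppp1r1b, Arpp21, Gnal, Rgs9, Pde10a, Pde1b and Gng7) was followed in 3 brain areas of 2 rat strains. They were taken by name from the annotation of the array, which gave 8 of its 16266 named genes and 11 of its 41012 probes: 3 probes of Arpp21, 2 of Gnal and 1 of each other gene. The WHP strain (high ethanol preference) was set against the WLP strain (low ethanol preference), both bred by selection for their drinking. All rats were alcohol-naive males housed with their brothers and killed by decapitation, and their age is not given in the sources used here. Each RNA pool joined equal amounts of total RNA from 3 rats, and 3 WHP pools were each hybridised with a WLP pool for every area studied, namely the nucleus accumbens, the hippocampus and the prefrontal medial cortex. Every such pool pair was measured on 2 arrays with the dyes swapped, so that 18 arrays of paired red and green channels hold 9 pool pairs. Rats are averaged within a pool, so the spread between rats was not measured.

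In the main neurons of the striatum, which includes the nucleus accumbens, some of the dopamine and adenosine receptors act on adenylyl cyclase through a G protein whose alpha subunit is Golf. The cyclic AMP made by the cyclase activates protein kinase A, which phosphorylates DARPP-32, an inhibitor of protein phosphatase 1, and phosphodiesterases end the signal by breaking cyclic AMP down. The genes of this chain are known for high expression in the striatum relative to most of the brain. Among the 8 genes, Gnal encodes Golf alpha and Gng7 a G protein gamma subunit, Adcy5 the main striatal adenylyl cyclase, Pde10a and Pde1b phosphodiesterases, Rgs9 a protein that speeds up GTP hydrolysis by G protein alpha subunits, and Ppp1r1b and Arpp21 the protein kinase A substrates DARPP-32 and ARPP-21. The Arpp21 gene makes a short ARPP-21 protein and longer forms that bind RNA.

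The probes of Arpp21 and Gnal are shown because the probes of the first gene gave different answers and those of the second did not. Each is 60 bases long and written in the 5′ to 3′ direction. They are named here by their position in the transcript that the scanner files list.
Arpp21 base 433: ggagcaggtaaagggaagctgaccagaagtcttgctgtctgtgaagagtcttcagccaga
Arpp21 base 687: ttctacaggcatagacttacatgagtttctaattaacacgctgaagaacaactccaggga
Arpp21 base 2601: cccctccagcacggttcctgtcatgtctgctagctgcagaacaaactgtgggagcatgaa
Gnal base 644: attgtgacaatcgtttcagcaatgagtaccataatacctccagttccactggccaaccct
Gnal base 1320: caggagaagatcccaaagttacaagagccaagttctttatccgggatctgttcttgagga
On the rat build rn4, as the scanner files give it, the Arpp21 probes lie on the minus strand at chr8:116790822-116790881, chr8:116784262-116785000 and chr8:116675346-116675405, and the Gnal probes on the plus strand at chr18:63643171-63643429 and chr18:63732728-63735660. The Arpp21 probe at base 687 covers 739 genomic bases and the Gnal probes 259 and 2933, more than their own 60 bases, so each of these crosses at least 1 intron. The files attach the base 433 probe to another Arpp21 transcript than the base 687 and base 2601 probes, so their positions are not on 1 scale. The single probes lie at chr11:67290986-67291045 (Adcy5, minus strand), chr10:87129321-87130656 (Ppp1r1b, plus), chr10:98598485-98598544 (Rgs9, minus), chr1:46393649-46393706 (Pde10a, minus), chr7:142427529-142427588 (Pde1b, plus) and chr7:10271041-10271100 (Gng7, plus).

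All 11 probes were well above background in all 12 channels of each area, and none was saturated, so no value below is a bound. Some were dim, however. In the hippocampal pairs Arpp21 at base 687 averaged 7.44 and Gnal at base 644 averaged 7.17 (log2 intensity), beside an array median of 7.47. Over the arrays, 28670 to 38173 of 43379 spots were above background in a channel. The areas matched their labels in part. For cortical excitatory neurons 12 of 14 markers were detected, and their median level was 10.33 to 10.65 (log2 intensity) in the prefrontal pairs, 8.13 to 8.29 in the accumbens pairs and 9.78 to 9.83 in the hippocampal pairs. Over 21 of 25 striatal neuron markers it was 9.37 to 9.43 in the accumbens pairs, 8.95 to 9.12 in the prefrontal pairs and 7.93 to 8.22 in the hippocampal pairs, so the prefrontal pools lay nearer to the accumbens pools than to the hippocampal ones on this list. Accumbens and prefrontal pairs of the same number shared a slide. The hippocampal arrays stood on slides and in a scan session of their own, with median red signals of 252 to 303, against 133 to 186 on the other arrays; area and session cannot be told apart in any comparison with the hippocampus. Of the pool pairs, 2 stood apart from the rest, with ratios of their dye-swapped arrays that were uncorrelated over all probes (Pearson r 0.04 in accumbens pair 3 and -0.004 in hippocampal pair 2, against 0.30 to 0.70 in the other 7).

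Levels were first compared between areas. Of the 11 probes, 10 had a higher level in the nucleus accumbens than in the hippocampus, though the difference of 1 of the 10, the Arpp21 probe at base 687, did not pass the test. Rgs9 averaged 12.51 ± 0.44 in the accumbens and 9.83 ± 0.34 in the hippocampus (log2 intensity, mean of both strains ± SD, n = 3 pool pairs each), a difference of 2.67 ± 0.27 (SE) or 6.38-fold (limma, adjusted p = 1.33e-05). Adcy5 averaged 12.69 ± 0.41 in the accumbens and 10.93 ± 0.20 in the hippocampus, and Ppp1r1b averaged 9.48 ± 0.62 and 7.88 ± 0.06 in the same order of areas. The remaining probes past the test were higher by 0.96 (Pde10a) to 2.12 (Arpp21 at base 433). In all, 9 of 11 probes passed the test as higher in the accumbens, against 35.5% of all probes tested, and 1 passed it as lower, against 38.4%.

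The accumbens and the prefrontal medial cortex could not be separated by most of these probes. No member probe was higher in the accumbens by the test, against 26.3% of all probes tested; 1 of the higher probes, that of Adcy5, had an unadjusted limma p under 0.05, as did 29.6% of all probes in that direction. Adcy5 had 12.69 ± 0.41 in the accumbens and 12.24 ± 0.25 in the prefrontal cortex, a difference of 0.46 ± 0.20 (limma, adjusted p = 0.0826); without accumbens pair 2 it was 0.69, with an adjusted p of 0.00673. Without accumbens pair 1, 2 probes passed the test as lower in the accumbens that did not with it, Pde10a at -0.44 (adjusted p = 0.0397) and Pde1b at -0.54 (adjusted p = 0.000936). Rgs9 had 12.51 ± 0.44 in the accumbens and 12.06 ± 0.47 in the prefrontal cortex, and Gng7 10.14 ± 0.44 and 10.04 ± 0.32 in that order. The Arpp21 probes at base 687 and base 2601, 2 of the 11, passed the test as lower in the accumbens, against 24.4% of all probes tested. Set against the hippocampus, all 11 probes were higher in the prefrontal cortex by the test, by 0.56 to 2.23, against 33% of all probes tested. With levels scaled to the 75th percentile in place of quantiles, the share of higher among all called probes in this comparison was 56.8% in place of 46.6%.

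**Figure D1:**
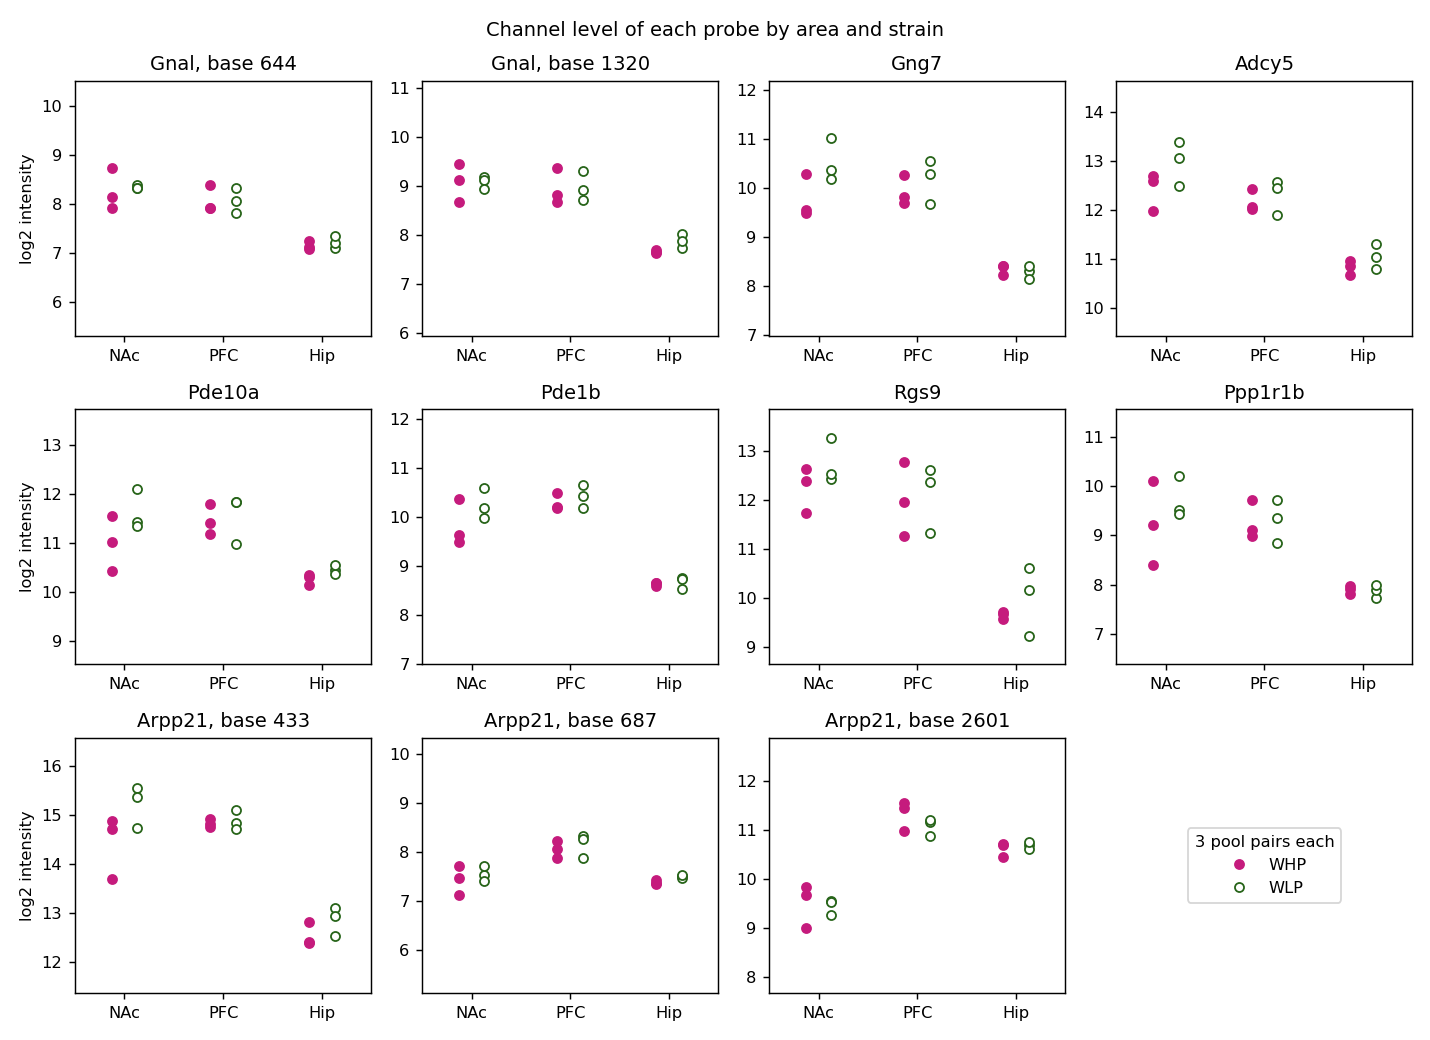
Channel level (log2 intensity, vertical axis) of each of the 11 probes in the nucleus accumbens (NAc), prefrontal medial cortex (PFC) and hippocampus (Hip), with 3 WHP pools as filled and 3 WLP pools as open points. Each panel spans the same number of log2 units around its own centre; the hippocampus is the lowest area in most panels, while the Arpp21 probe at base 2601 is lowest in the accumbens.

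The 3 Arpp21 probes differed in which area was high. The base 433 probe averaged 14.83 ± 0.53 in the accumbens, 14.86 ± 0.14 in the prefrontal cortex and 12.70 ± 0.25 in the hippocampus. The base 2601 probe averaged 9.48 ± 0.31 in the accumbens, 11.21 ± 0.13 in the prefrontal cortex and 10.65 ± 0.05 in the hippocampus. Its level was thus lower in the accumbens than in the prefrontal cortex by 1.73 on the log2 scale (SE 0.13, limma, adjusted p = 1.19e-05) and lower than in the hippocampus by 1.17 (SE 0.13, adjusted p = 2.29e-05), while the base 433 probe was higher in the accumbens than in the hippocampus by 2.12 (SE 0.23, adjusted p = 1.95e-05). The base 687 probe followed neither pattern, at 7.50 ± 0.20 in the accumbens, 8.11 ± 0.06 in the prefrontal cortex and 7.44 ± 0.01 in the hippocampus. It was lower in the accumbens than in the prefrontal cortex by 0.61 (adjusted p = 0.000259), a call lost with 75th percentile scaling (adjusted p = 0.0555). Without accumbens pair 2 its level in the accumbens passed the test as higher than in the hippocampus (0.16, adjusted p = 0.0108). With 75th percentile scaling the base 2601 probe was no longer called higher in the prefrontal cortex than in the hippocampus (0.35, adjusted p = 0.137); that scaling moved the median of all probes by -0.18 to 0.42 in the 3 comparisons. The Gnal probes gave like answers, higher in the accumbens than in the hippocampus by 1.13 ± 0.12 (base 644) and 1.32 ± 0.12 (base 1320), and the spread between pools was small beside these differences.

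The strain comparison asked which transcripts differed between WHP and WLP before any contact with alcohol. Ratios are log2 of WHP over WLP, averaged over both dye orientations of a pool pair, so that a value below 0 means less signal in WHP. In pooled tissue, fewer cells of a type and less RNA per cell cannot be told apart. In the nucleus accumbens 7 of the 8 genes had a mean ratio below 0 by their brightest probe, from -0.41 for Pde1b to -0.79 for Arpp21, while Gnal was at 0.00. Of the 11 probes 1, that of Arpp21 at base 433, passed the test as lower in WHP, against 0.308% of all probes tested; 5 of the 11 had an unadjusted limma p under 0.05, as did 17.1% of all probes. The median of the 8 genes was -0.53, beside 0.00 over all probes tested. Of the 11 probes, 7 had a ratio below 0 in all 3 accumbens pairs, as did 15% of all probes tested. The range of the 3 WHP pools overlapped that of the 3 WLP pools for all 11 probes in the accumbens and in the prefrontal cortex, where 5.88% and 6.05% of all probes tested had all WHP pools below all WLP pools. In the hippocampus 3 of the 11 (Arpp21 at base 687, Gnal at base 1320 and Pde10a) had all WHP pools below all WLP pools, against 7.95% of all probes tested. The gaps were narrow. The highest WHP and lowest WLP pools were at 7.43 and 7.47, 7.70 and 7.74, and 10.34 and 10.38 in that order of probes. Their unadjusted limma p were 0.399, 0.296 and 0.331.

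Arpp21 at base 433 had levels of 14.88, 13.69 and 14.72 in the 3 WHP accumbens pools, against 15.55, 14.74 and 15.37 in the WLP pools hybridised with them. Each WHP pool was below its own partner, but the highest WHP pool was above the lowest WLP pool, so the groups overlapped. The ratios were -0.67, -1.05 and -0.66, with an SD of 0.22 over these 3 pool pairs. Their mean was -0.79 ± 0.09 (SE), which is 0.578-fold in WHP (limma, adjusted p = 0.0164). This SE, like the others given for strain ratios, comes from the fit over all 9 pool pairs of the 3 areas. All 6 arrays of the area gave a ratio between -0.58 and -1.12. The call depended on the fit. The adjusted limma p was 0.0554 with the pair number as a replicate block. That number marks the slide in the accumbens and prefrontal pairs but not in the hippocampal ones. The adjusted p was 0.0595 without accumbens pair 3 and 0.160 without both pairs of uncorrelated dye-swapped arrays. With the arrays of the first scan session alone it was 0.0882, with the accumbens fitted alone 0.275 and with robust, trended variances 0.309. It missed the threshold in 9 of 27 alternatives in all, and the estimates of the 27 ran from -0.86 to -0.66.

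On the G protein side, Gng7 had nearly the same ratio in each accumbens pair. Its accumbens levels were 10.27, 9.48 and 9.55 in WHP pools, against 11.02, 10.17 and 10.35 in WLP pools. The ratios were -0.75, -0.69 and -0.80, with a mean of -0.75 ± 0.12 (SE), or 0.596-fold, which missed the threshold (limma, adjusted p = 0.0585). The arrays of pair 3 differed, however, with -1.54 where WHP was in Cy3 and -0.06 where it was in Cy5. The accumbens ratio passed the test in 4 of 27 alternatives. The lowest adjusted p was 0.000870, with prefrontal pair 1 left out of the fit, and the highest was 0.342. Gnal, whose product works with a gamma subunit in the same G protein, had accumbens ratios of 0.34, -0.40 and -0.19 by the base 644 probe and 0.27, -0.44 and 0.18 by the base 1320 probe. By both probes pair 1 was above 0 and pair 2 below it.

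Adcy5, the cyclase, had accumbens levels of 12.68, 11.97 and 12.58 in WHP pools, against 13.39, 12.49 and 13.05 in WLP pools. The ratios of -0.70, -0.52 and -0.47 averaged -0.56 ± 0.11 (SE), or 0.676-fold (limma, adjusted p = 0.0803). It passed the test in 3 of 27 alternatives, 1 of them without prefrontal pair 1 (adjusted p = 0.0155). The highest adjusted p among the alternatives was 0.325. The phosphodiesterases also had ratios below 0 in each accumbens pair. Pde10a had ratios of -0.56, -1.002 and -0.33, with a mean of -0.63 ± 0.19 (adjusted p = 0.186). Pde1b had -0.22, -0.68 and -0.33, with a mean of -0.41 ± 0.11 (adjusted p = 0.157). In both, pair 2 held the lowest ratio and the groups of pools overlapped.

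Rgs9 and Ppp1r1b had the largest standard errors of the 11 probes. Rgs9 had accumbens ratios of -0.64, -0.69 and -0.14, with a mean of -0.49 ± 0.38 (adjusted p = 0.540), which became 0.10 with the striatal marker medians of the pool pairs as a covariate. For Ppp1r1b, the DARPP-32 gene, pair 2 stood apart, with ratios of -0.11, -1.12 and -0.22 and a mean of -0.48 ± 0.24 (adjusted p = 0.344). Neither difference was larger than the model's spread between pairs allowed it to call. For Rgs9 that spread was wider in the other areas. The SD of its ratios was 0.30 in the accumbens, 1.08 in the prefrontal cortex and 0.75 in the hippocampus.

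**Figure D2:**
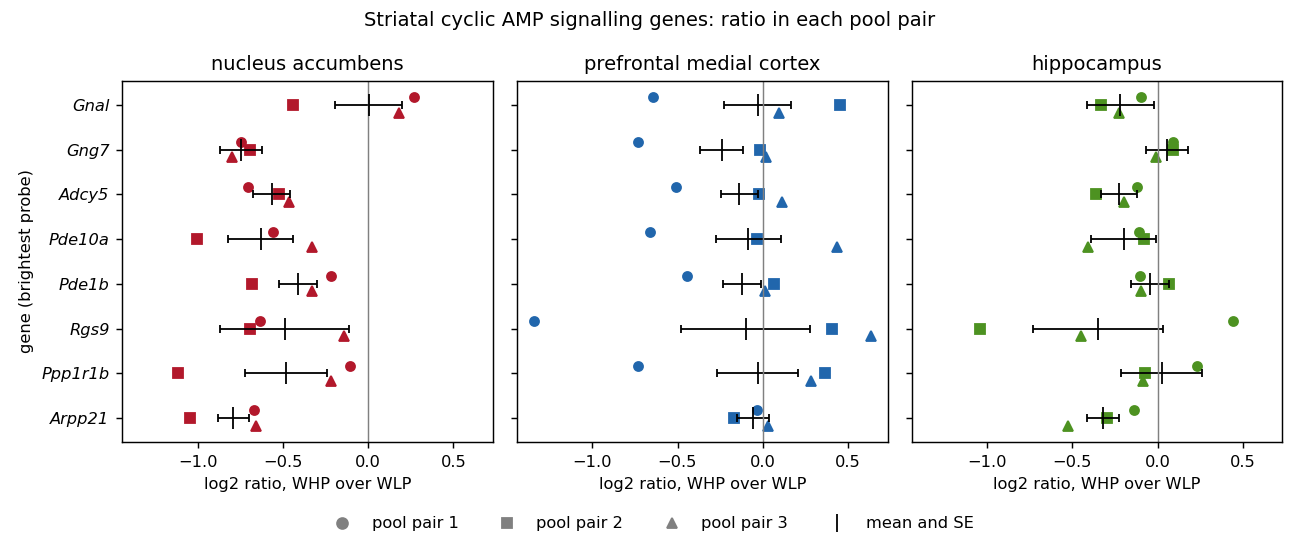
Log2 ratio of WHP over WLP (horizontal axis) for the brightest probe of each gene in each pool pair, with marker shapes for pairs 1 to 3 and black bars for the mean and its standard error from the fit. In the accumbens all genes but Gnal lie below 0 in all 3 pairs; in the prefrontal cortex pair 1 lies below 0 and pairs 2 and 3 near or above it for most genes.

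In the prefrontal medial cortex no member probe passed the test, where 0.0974% of all probes did, and none of the 11 had an unadjusted limma p under 0.05, against 8.97% of all probes. The mean ratios ran from -0.24 (Gng7) to 0.25 (Arpp21 at base 2601), and behind these means the pairs opposed each other. In pair 1 all 8 genes were below 0 by their brightest probe, with a median of -0.65, in pair 2 4 of 8 were above 0 with a median of 0.02, and in pair 3 all 8 were above 0 with a median of 0.10. Rgs9 had ratios of -1.34, 0.41 and 0.63 there, and Ppp1r1b -0.73, 0.36 and 0.28. Arpp21 at base 433 stayed near 0 in all 3 pairs, at -0.03, -0.17 and 0.03, also in pair 1 where the other 7 genes ranged from -0.45 to -1.34. No member probe was below 0 in all 3 prefrontal pairs, against 14.5% of all probes tested.

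In the hippocampus no member probe passed the test either, where 0.273% of all probes did. An unadjusted p under 0.05 was found for 1 of the 11 probes, near the 7.04% of all probes. It was Arpp21 at base 433, with ratios of -0.14, -0.30 and -0.52 and a mean of -0.32 ± 0.09 (limma, adjusted p = 0.389). Adcy5 had -0.12, -0.36 and -0.20, with a mean of -0.23 ± 0.11 (adjusted p = 0.760). Gng7, at -0.75 in the accumbens, had 0.09, 0.09 and -0.01 here. Rgs9 had 0.44, -1.04 and -0.45, so the sign depended on the pair. Of the 11 probes, 6 had a ratio below 0 in all 3 hippocampal pairs, against 20.8% of all probes tested.

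Averaged over the 3 areas, 2 of the 11 probes passed the test as lower in WHP, against 3.03% of all probes tested. They were Arpp21 at base 433, at -0.39 ± 0.05 (SE, 9 pool pairs, limma, adjusted p = 0.00809), and Adcy5, at -0.31 ± 0.06 (adjusted p = 0.0374). For each, 8 of 9 pairs were below 0. The Adcy5 call was lost without any 1 of 7 pool pairs (adjusted p = 0.0519 to 0.103), that is without any accumbens or hippocampal pair or prefrontal pair 2, without both pairs of uncorrelated arrays (adjusted p = 0.156), and with the replicate block (adjusted p = 0.0578). Gng7 had -0.31 ± 0.07 (adjusted p = 0.0610) and Pde10a -0.30 ± 0.11 (adjusted p = 0.188). Gng7 passed in 2 of 24 alternatives, 1 of them without prefrontal pair 1 (adjusted p = 0.00368).

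Whether the strain ratio differed between areas was tested by the difference of the ratios. No member probe passed in any of the 3 comparisons of areas, and neither did any other probe on the array (0% of all probes tested in each). Between the accumbens and the prefrontal cortex the largest difference among the members was -0.73 ± 0.13 for Arpp21 at base 433 (limma, unadjusted p = 0.000389, adjusted p = 0.9997), and 3 of the 11 probes had an unadjusted p under 0.05, against 3.64% of all probes. Between the accumbens and the hippocampus it was -0.80 ± 0.18 for Gng7 (unadjusted p = 0.00158, adjusted p = 0.524), with 3 of 11 under 0.05 unadjusted, against 9.33% of all probes. The Gng7 difference passed in 1 of 24 alternatives, that without prefrontal pair 1 (adjusted p = 0.0200). Between the prefrontal cortex and the hippocampus 0 of 11 had an unadjusted p under 0.05, against 4.04% of all probes. The accumbens ratio of these genes was therefore not shown to differ from that of the other areas.

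Probes of 1 gene share the pools of each array, so their ratios were compared within pool pairs by an exact permutation test over all sign flips, two-sided and adjusted over 4 pairs of probes (smallest possible p 0.00391). Arpp21 at base 433 had a ratio lower than at base 2601 in 8 of 9 pool pairs, by 0.47 on average (SD 0.35; exact p = 0.00781, adjusted 0.0312). Base 687 was lower than base 2601 in 8 of 9 pairs, by 0.20 (SD 0.19; exact p = 0.0195, adjusted 0.0391), and base 433 lower than base 687 in 6 of 9, by 0.27 (SD 0.40; exact p = 0.0742, adjusted 0.0990). In the accumbens, where the base 433 probe had -0.67, -1.05 and -0.66, the base 2601 probe had ratios of 0.30, -0.26 and 0.15, and the base 687 probe 0.18, -0.29 and -0.25. The base 687 probe was dim, with a mean accumbens level of 7.50 against 14.83 for base 433. Of the 2 pairs of probes past the threshold, none remained so when any 1 of 7 pool pairs was left out and 1 did without prefrontal pair 2, whereas both did without hippocampal pair 3. The Gnal probes differed by 0.04 (SD 0.19; exact p = 0.598), and their ratios were correlated over the 9 pairs (Pearson r 0.86, a description, since the probes share every array).

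**Figure D3:**
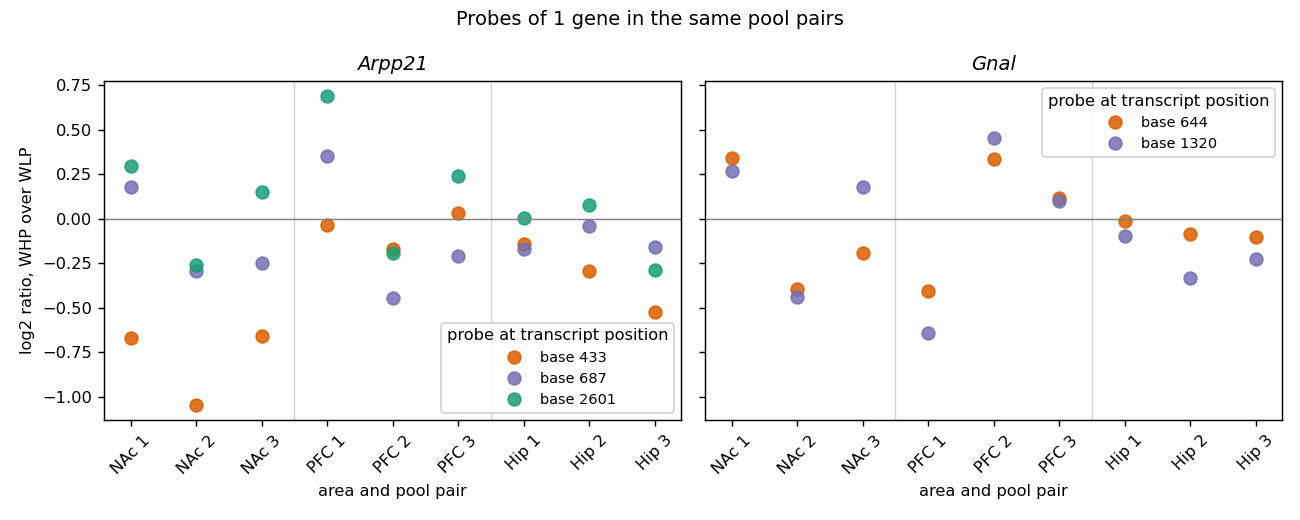
Log2 ratio of WHP over WLP (vertical axis) of the 3 Arpp21 probes and the 2 Gnal probes in each of the 9 pool pairs (horizontal axis; NAc nucleus accumbens, PFC prefrontal medial cortex, Hip hippocampus). The Arpp21 probe at base 433 lies below the other Arpp21 probes in every accumbens pair, between -0.66 and -1.05, and the Gnal probes lie close together.

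The striatal neuron markers, a list that holds none of the 8 genes, were followed beside them. In accumbens pairs 1 to 3 the medians were -0.60, -0.69 and -0.33 for the 8 genes, beside -0.21, -0.49 and 0.02 for the 22 markers detected of 25. In the prefrontal pairs they were -0.65, 0.02 and 0.10, beside -0.39, 0.22 and 0.15. In the hippocampal pairs they were -0.10, -0.19 and -0.21, beside 0.01, -0.17 and -0.15 for 21 markers. With the median of the striatal markers as a covariate, the accumbens values were -0.73 for Arpp21 at base 433 (limma, adjusted p = 0.0209), -0.59 for Gng7 (adjusted p = 0.0360) and -0.42 for Adcy5 (adjusted p = 0.0486). These 3 probes passed the test, but that fit called many more probes of the whole array, 1482 against 93 of 30217 in the main fit. The other 8 probes did not pass. Pde10a was at -0.33, Pde1b at -0.25 and Ppp1r1b at -0.07, all nearer to 0 than without the covariate, and Rgs9 turned to 0.10. The Gnal probes were at 0.11 (base 644) and 0.34 (base 1320), and the other Arpp21 probes at -0.28 (base 687) and -0.03 (base 2601).

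Markers of neighbouring tissue and other cell types were read in the same way, and none passed the test in any area. The 13 meninges and fibroblast markers had medians of 1.30, 2.51 and -0.98 in the accumbens pairs, -0.96, -0.18 and 0.91 in the prefrontal pairs and 1.1, -0.02 and 0.55 in the hippocampal pairs. All 13 had a mean above 0 in the accumbens (median 0.93) and in the hippocampus (median 0.56), as did 7 of 13 in the prefrontal cortex. The cortical neuron markers had 0.30, -0.73 and -0.18 in the accumbens pairs, 0.59, -0.47 and -0.07 in the prefrontal pairs and -0.08, 0.12 and -0.02 in the hippocampal pairs. Oligodendrocyte markers, 11 of 11 detected, had -0.54, 0.19 and -0.35 in the accumbens pairs, -0.75, 0.46 and 0.33 in the prefrontal pairs and 0.32, 0.46 and 0.16 in the hippocampal pairs, where 11 of 11 had a mean above 0. Choroid plexus markers had 0.49, -0.12 and -0.53 in the accumbens pairs (7 of 10 detected), -0.23, 2.26 and 0.06 in the prefrontal pairs (6 of 10) and 1.65, 0.06 and 0.54 in the hippocampal pairs (10 of 10). All those detected had a mean above 0 in the prefrontal cortex and in the hippocampus. Microglia markers had -0.30, 0.07 and -0.21 in the accumbens pairs and -0.20, -0.09 and -0.04 in the prefrontal pairs. In the hippocampal pairs they had -0.01, 0.07 and -0.02. Hippocampal neuron markers had medians from -0.20 to 0.10 over the 9 pairs. Astrocyte markers had -0.07, -0.12 and -0.10 in the accumbens pairs, -0.29, -0.12 and -0.14 in the prefrontal pairs, where 11 of 11 had a mean below 0, and 0.03, 0.05 and -0.04 in the hippocampal pairs. With the meninges median as a covariate the ratio of Arpp21 at base 433 in the accumbens was -0.74 (limma, adjusted p = 0.0628). The striatal and meninges covariates are marker medians from the same arrays. Fits with them cannot separate tissue content from a strain difference in the markers themselves. The part of dissection in the strain ratios was not tested.

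**Figure D4:**
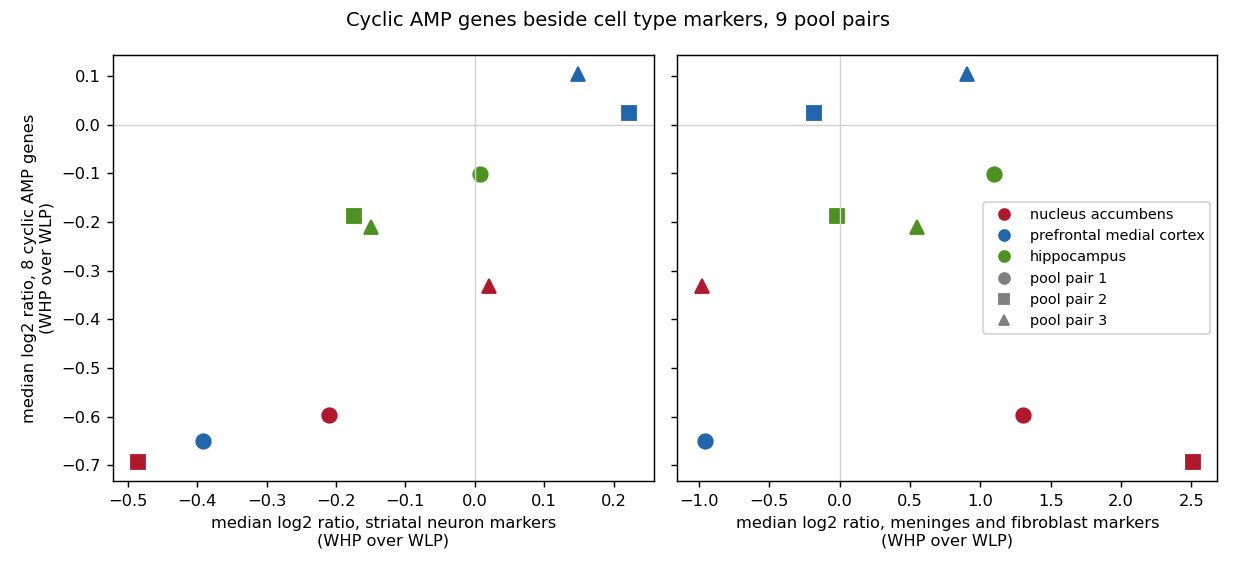
Median log2 ratio of WHP over WLP of the 8 cyclic AMP genes (vertical axis) against that of the striatal neuron markers (left) and of the meninges and fibroblast markers (right, horizontal axes), 1 point per pool pair, coloured by area. The 3 lowest medians, near -0.6 to -0.7, fall in accumbens pairs 1 and 2 and prefrontal pair 1, the pairs with the lowest striatal marker medians.

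The rest of the pathway was followed in 6 lists of 101 genes. In the accumbens 0 of 149 detected probes of these genes passed the test, as did 0 of 145 in the prefrontal cortex and 0 of 147 in the hippocampus. With 0.308%, 0.0974% and 0.273% of all probes called in these areas, lists of this size would hold few or no calls at the array's own rate, so the counts do not set the lists apart from it. The list medians in the accumbens were near 0, at 0.00 for the 9 other adenylyl cyclases, -0.04 for 21 other G protein subunits and their chaperones, -0.06 for 9 other RGS proteins and their binding partners, 0.00 for 15 other phosphodiesterases, -0.03 for 26 genes of protein kinase A and its effectors, and -0.06 for 17 phosphatases and kinases around DARPP-32, beside -0.53 for the 8 genes. In the mean of the 3 areas 2 of 145 probes passed the test, both lower in WHP, a smaller share than the 3.03% of all probes. These were a probe of Ppp3ca, a catalytic subunit of the phosphatase calcineurin, which dephosphorylates DARPP-32, at -0.25 ± 0.05 (limma, adjusted p = 0.0443), and a probe of Gnao1, an inhibitory-class G protein alpha subunit abundant in brain, at -0.36 ± 0.07 (adjusted p = 0.0299). Neither is the brightest probe of its gene, and no other probe of either gene passed.

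The members of these lists with the largest accumbens ratios did not pass the test. Among phosphodiesterases they were Pde2a at -0.47 ± 0.14 and Pde1a at -0.39 ± 0.15. Around protein kinase A they were Pkib, a kinase inhibitor, at 0.47 ± 0.17 and Prkacb, a catalytic subunit, at -0.47 ± 0.13, and around DARPP-32 the calcineurin genes Ppp3r1 at -0.35 ± 0.14 and Ppp3ca at -0.32 ± 0.12. The Ppp3ca value is that of its brightest probe, another than the probe called in the mean of the 3 areas. The other lists gave the G protein subunits Gng11 (0.37 ± 0.28) and Gnb2 (-0.23 ± 0.12), the regulators Rgs4 (0.27 ± 0.29) and Rgs20 (-0.27 ± 0.11) and the cyclases Adcy9 (-0.24 ± 0.20) and Adcy8 (0.20 ± 0.15), with adjusted p of 0.161 to 0.664 over all 12.

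Across the 9 pool pairs, the gene most like the median of the 8 was Drd2, the dopamine D2 receptor of striatal neurons, at a Pearson r of 0.98. It is also 1 of the striatal markers. Next came Tomm70 (r 0.94), Tle4 (r 0.94), Cyp2b21 (r 0.92) and Spock3 (r 0.90), out of 12512 genes compared. Drd2 had ratios of -0.25, -0.25 and -0.06 in the accumbens pairs, smaller than the medians of the 8 genes there. The values compared come from the same arrays and from only 9 pool pairs, so these correlations are given as a description. Among the brightest probes of the members, those of Pde10a (r 0.93) and Adcy5 (r 0.92) followed the common median most closely and that of Gnal least (r 0.50), a median that includes them. The dimmer Arpp21 probes ran against it, at r -0.57 for base 687 and -0.29 for base 2601.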

How the data were processed

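The arrays were read from the scanner's intensity tables, which per the file headers were made with Agilent Feature Extraction 10.10.1.1, and from the deposited value table of log2 ratios, whose direction was settled by its positive correlation with the scanner's WHP over WLP ratio on all 18 arrays and whose normalization is not given in the sources used here. Spot intensity, the mean signal and local median background as the authors deposited it, was corrected with normexp (offset 50) and normalized by loess within arrays, and levels by quantiles between arrays (limma 3.58.1, R 4.3.3). The labelled dyes gave each ratio's direction, and both dye orientations of a pool pair were averaged. Ratios and levels of the 9 pool pairs were fitted with 1 coefficient per area and moderated (6 residual and 2.45 or 3.48 prior degrees of freedom), with Benjamini-Hochberg adjustment over all probes above background in at least 4 of 6 channels of a strain and a threshold of 0.05. The fit was also run on simulated data with independent noise and changes larger than the mean ratios of the members. That run does not show how the fit performs on ratios of their size.

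Probes were named through RefSeq accessions and symbols, which left 19714 unnamed. All member probes are reported; of the pathway lists, genes with a probe past the strain test and the 2 of each list with the largest accumbens ratio are named, and the 5 genes most like the members. The members, the lists and the tests were chosen with earlier results of these data known. Between areas, the deviations of pool pairs with the same replicate number had correlations of -0.38 to 0.17. These cannot decide whether such pools came from the same rats, since even dye-swapped arrays of the same pools were uncorrelated in some pairs. The mean over areas and the sign flips treat all pool pairs as independent, which was not shown. The number of arrays limits the precision. p-values measure the spread between pools. Sequences of the probes and their positions are those in the scanner files. Alternatives are given in the closing section.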

Additional observations from a re-analysis of the deposited data

How the results depend on the processing

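With 3 pool pairs per area, calls close to the threshold depended on the settings, while no call changed direction. In the nucleus accumbens 1 member probe was called; the count was 0 with the area fitted alone, with the first scan session alone, with slide as a block there, with a replicate block, with WHP in Cy3 alone, with trended and robust variances, and, both added after seeing the data, with the meninges covariate and without the 2 pairs of uncorrelated dye-swapped arrays. It was 2 with a normexp offset of 16, 4 with all 18 arrays entered singly, which treats dye swaps as replicates, and 3 with the striatal covariate. The fit with the striatal covariate called 1482 of all probes, against 93 in the main fit. The other counts are given without the share of all probes called in the same setting. Leaving out 1 pool pair gave 0 (accumbens pair 3) to 3 (prefrontal pair 1). In the hippocampus the count was 1 in place of 0 with arrays entered singly; in the prefrontal cortex it stayed 0 throughout. For the mean of 3 areas it was 2; it dropped to 1 with the signals as processed by the scanner, the deposited value table, a replicate block, no filter on dim probes, the meninges covariate or without the 2 uncorrelated pairs, 4 with arrays entered singly, 0 with trended and robust variances, and 1 to 3 without 1 pool pair. Differences between areas were called for 0 probes, for 1 with arrays entered singly, and for 0 to 1 without 1 pool pair. The replicate block changed no other call. Levels higher in the accumbens than in the prefrontal cortex were called for 0 to 1 probes without 1 pool pair, and those against the hippocampus for 9 to 10 (accumbens) and 10 to 11 (prefrontal cortex) under every alternative run. The pairs of probes past the threshold numbered 0 to 2 without 1 pool pair, where fewer sign flips are possible, and 2 with the other signals tried after seeing the data. Over all probes the strain fit called 93 in the accumbens (0 to 1482 under the alternatives), 28 in the prefrontal cortex (0 to 205), 95 in the hippocampus (0 to 504) and 861 in the mean (0 to 2333). With 75th percentile scaling of levels, 1434 probes were higher and 1661 lower in the accumbens than in the prefrontal cortex (8004 and 7434 with quantiles), 6208 and 5299 against the hippocampus (12481 and 13498), and 6489 and 4934 between prefrontal cortex and hippocampus (11527 and 13204).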
